A study of Mus musculus with 64 samples.

Results

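The non-clustered delta protocadherins are described here across 4 genotypes in mouse striatum and cortex. Their 10 members, Pcdh1, Pcdh7, Pcdh8, Pcdh9, Pcdh10, Pcdh11x, Pcdh17, Pcdh18, Pcdh19 and Pcdh20, were taken by symbol from a table of 48795 genes, where each symbol matched 1 row. All 10 passed the low-count filter in both tissues. Striatum and cortex came from 32 C57BL/6 mice aged 6 months at dissection, and each mouse gave 1 library per tissue, 64 in all. The Q140 mice were heterozygous for a huntingtin (Htt) allele in which an expanded CAG tract was knocked in, a model of Huntington's disease, and had both copies of Polq. The wild-type mice had neither change. The Q140 Polq+/- mice carried the same knock-in on 1 Htt allele and were labelled heterozygous for Polq, which encodes DNA polymerase theta, an enzyme that joins broken DNA ends. The Polq+/- mice were labelled heterozygous for Polq alone. Every genotype had 8 mice, 4 females and 4 males, so replicates were separate animals. The samples were whole tissue pieces, in which fewer cells of a type and less RNA per cell cannot be told apart.

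Protocadherins are cadherin-family adhesion proteins of the neuronal surface. The delta members are encoded by single genes outside the large protocadherin clusters, and they are divided by the cytoplasmic motifs they share into a delta-1 group (Pcdh1, Pcdh7, Pcdh9 and Pcdh11x) and a delta-2 group (Pcdh8, Pcdh10, Pcdh17, Pcdh18 and Pcdh19), with Pcdh20 usually placed beside them. They bind weakly between cells, are expressed in different combinations by different neurons, and take part in axon growth and synapse formation. Several delta-2 members recruit the WAVE complex, which starts actin branching, while delta-1 members carry a binding site for protein phosphatase-1.

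Depth and labels were examined first. Striatal libraries held 28.7 to 40.6 M counts and cortical libraries 30.9 to 40.1 M. Levels below are counts relative to each library's total (CPM) scaled by TMM (a normalization that sets the bulk of genes equal between libraries), unless FPKM (a level per gene length and library size) is named. The tissue labels matched their markers: in wild-type mice the spiny neuron gene Drd1 averaged 369 CPM in striatum and 5.21 CPM in cortex, and the cortical gene Slc17a7 averaged 5.69 CPM in striatum and 1301 CPM in cortex. Striatal Polq averaged 1.35 ± 0.939 CPM in Q140 Polq+/- mice and 3.10 ± 0.409 CPM in Q140 mice, and 1.66 ± 0.647 CPM in Polq+/- mice and 3.14 ± 0.506 CPM in wild-type mice (SD, n = 8 each). Of the 16 mice labelled Polq+/-, 4 had far lower Polq than the others, down to 0.187 CPM, so comparisons on Polq are given with and without them. Striatal libraries of 3 mice stood apart. Wild-type male 2 had the highest summed cortical neuron markers of its group, 60.6 CPM against a group median of 30.0 CPM. Wild-type male 3 had 137 CPM of Htt against a group mean of 205 CPM. Polq+/- female 3 had 1351 CPM of choroid plexus markers against a group median of 12.6 CPM.

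Upstream sequences are shown for 3 members that rose in Q140 striatum and for Pcdh8, which passed no test there, as RefSeq gives them on GRCm38.p6. Each is the stretch just before the annotated start, 5′ to 3′ on the strand of the gene, with every CG pair in capitals. They lie at chr14:88471397-88471646 (minus strand), chrX:133689045-133689243 (minus strand, shortened where an annotated transcript begins further upstream), chr3:45378148-45378397 (plus strand) and chr14:79771313-79771562 (minus strand).
Pcdh20: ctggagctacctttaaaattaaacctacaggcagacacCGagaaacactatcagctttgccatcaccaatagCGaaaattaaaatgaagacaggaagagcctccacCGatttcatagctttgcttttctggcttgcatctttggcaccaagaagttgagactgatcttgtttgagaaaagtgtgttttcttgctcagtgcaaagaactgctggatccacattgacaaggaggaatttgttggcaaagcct
Pcdh19: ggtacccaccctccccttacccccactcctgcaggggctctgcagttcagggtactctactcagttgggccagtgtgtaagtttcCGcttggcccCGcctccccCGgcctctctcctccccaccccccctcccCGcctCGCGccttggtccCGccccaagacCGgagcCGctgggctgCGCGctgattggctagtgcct
Pcdh10: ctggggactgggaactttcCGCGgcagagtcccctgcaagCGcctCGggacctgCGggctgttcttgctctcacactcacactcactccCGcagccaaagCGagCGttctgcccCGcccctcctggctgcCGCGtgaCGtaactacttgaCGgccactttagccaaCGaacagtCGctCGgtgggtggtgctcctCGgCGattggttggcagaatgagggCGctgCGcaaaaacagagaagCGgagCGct
Pcdh8: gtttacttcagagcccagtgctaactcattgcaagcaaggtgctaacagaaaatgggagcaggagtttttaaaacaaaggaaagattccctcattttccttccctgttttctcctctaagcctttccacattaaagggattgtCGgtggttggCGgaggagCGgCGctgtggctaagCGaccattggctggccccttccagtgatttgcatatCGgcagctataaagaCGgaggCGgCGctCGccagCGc
Over the full 250 bases before the start, Pcdh20 had 3 CG pairs, Pcdh19 had 16, Pcdh10 had 22 and Pcdh8 had 11, against a median of 6 over 32851 such windows of all genes. Windows with as few CG pairs as Pcdh20 made up 37.8% of all. The members that rose thus included a window poor in CG and windows rich in it. Of the 10 members, 8 had a window in the table. None of the 8 held TGACGTCA (the cyclic AMP response element, in 1.55% of all windows), GCGTGGGCG (the EGR motif, 0.536%) or TGANTCA (the AP-1 motif, 6.75%) on either strand. These motifs are bound by factors that neuronal activity switches on.

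The members are spread over 5 chromosomes, given here on GRCm38. Pcdh8 (chr14:79766775-79771312, minus strand), Pcdh17 (chr14:84443563-84539002, plus strand), Pcdh20 (chr14:88464743-88471396, minus strand) and Pcdh9 (chr14:93013410-93890679, minus strand) follow each other along chromosome 14. Pcdh10 (chr3:45378398-45435623, plus strand) and Pcdh18 (chr3:49743296-49757325, minus strand) are neighbours on chromosome 3. Pcdh11x (chrX:120290259-120910619, plus strand) and Pcdh19 (chrX:133582860-133688987, minus strand) are X-linked. Pcdh7 (chr5:57717967-58133230, plus strand) lies on chromosome 5, 22.8 Mb beyond the end of Htt, and Pcdh1 (chr18:38185914-38212053, minus strand) on chromosome 18. A transcript on the opposite strand, 4932441J04Rik, overlaps exons of Pcdh7 and had a mean of 206 counts in striatum, and small ones overlap exons of Pcdh8, Pcdh10 and Pcdh19 with means of 2.69, 0.0312 and 4.56 counts. The library kit marked strand, but no source used here gives the strand setting of the counting, so reads of these pairs may not be fully separated.

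The levels of the members in wild-type mice set the starting point. By FPKM, which allows genes of different length to be set side by side, Pcdh1 was the highest member in both tissues, with 21.8 ± 1.53 in striatum and 35.8 ± 1.93 in cortex (SD, n = 8 each). In striatum Pcdh10 followed at 15.4 ± 1.20, Pcdh17 at 12.3 ± 2.44, Pcdh9 at 9.42 ± 1.32 and Pcdh7 at 8.94 ± 0.531. The other 5 were several times lower: Pcdh11x averaged 2.26, Pcdh8 2.14, Pcdh20 1.43, Pcdh19 1.10 and Pcdh18 0.686 FPKM. In the striatal order, only the steps below Pcdh1 and below Pcdh7 were wider than the spread, and the ranges of all other neighbours overlapped. In cortex the order after Pcdh1 was Pcdh9 at 23.5, Pcdh7 at 22.6, Pcdh10 at 12.3, Pcdh8 at 6.41, Pcdh17 at 6.12, Pcdh20 at 4.37, Pcdh19 at 2.57, and Pcdh11x and Pcdh18 both at 1.12 FPKM. The pairs Pcdh9 and Pcdh7, Pcdh8 and Pcdh17, Pcdh17 and Pcdh20, and Pcdh11x and Pcdh18 had overlapping cortical ranges, and the other neighbours did not.

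**Figure D1:**
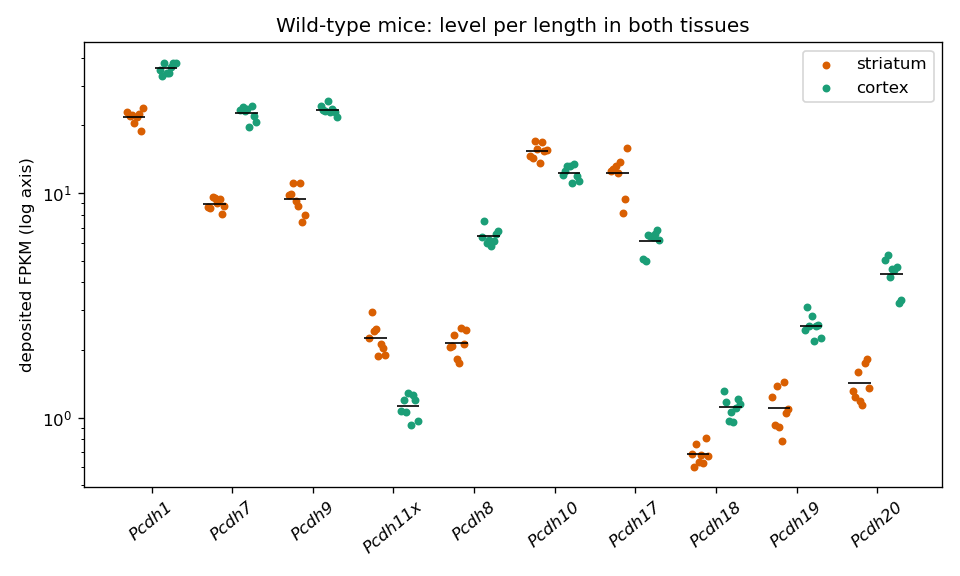
Deposited FPKM (log axis) of the 10 members in wild-type striatum (left of each pair, orange) and cortex (right, green), 1 point per mouse, with black lines at the means. Pcdh11x, Pcdh17 and Pcdh10 sit higher in striatum and the other 7 higher in cortex.

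Set against cortex within the same wild-type mice, all 10 members differed in striatum at an adjusted p under 0.05 (edgeR's quasi-likelihood test, Benjamini-Hochberg over all genes tested), in a comparison where 77.2% of 19091 genes passed, 39.1% higher and 38.1% lower. Lower in striatum were 7 members: Pcdh20 by a log2 fold change of -1.64 (SE 0.103), Pcdh8 by -1.61 (SE 0.0587), Pcdh7 by -1.36 (SE 0.0372), Pcdh9 by -1.35 (SE 0.0462), Pcdh19 by -1.25 (SE 0.0762), Pcdh1 by -0.74 (SE 0.0323) and Pcdh18 by -0.73 (SE 0.0826). Higher in striatum were Pcdh11x by 0.98 (SE 0.0476), Pcdh17 by 0.96 (SE 0.0911) and Pcdh10 by 0.29 (SE 0.0273). Each direction held in 8 of 8 mice, and the adjusted p ran from 1.22e-29 for Pcdh7 to 1.55e-10 for Pcdh18. Pcdh17 and Pcdh10 are known for their expression along the circuits that link cortex and basal ganglia. Striatal libraries filled plate columns 1 to 4 and cortical libraries columns 5 to 8, so tissue and plate position cannot be told apart.

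In the striatum of Q140 mice, Pcdh20 and Pcdh19 stood at 2.42 and 1.90 times their wild-type level, and Pcdh10 and Pcdh11x at 1.37 and 1.33 times theirs. Pcdh20 had a lowest, median and highest level of 17.4, 19.1 and 22.2 CPM in Q140 mice, and of 6.46, 7.51 and 9.91 CPM in wild-type mice. Every Q140 library lay above every wild-type library. The log2 fold change was 1.28 (SE 0.0735, 95% interval 1.13 to 1.42, adjusted p = 3.25e-16 by edgeR). Per length, this was 3.59 ± 0.343 FPKM in Q140 striatum and 1.43 ± 0.265 FPKM in wild-type striatum, while cortex had 4.31 ± 0.577 FPKM in Q140 mice and 4.37 ± 0.737 FPKM in wild-type mice (SD, n = 8 each).

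Pcdh19, the X-linked delta-2 member mutated in a human epilepsy of girls, had 20.6, 22.2 and 25.7 CPM (lowest, median and highest) in Q140 striata and 8.51, 11.2 and 15.1 CPM in wild-type striata. The groups did not overlap. The log2 fold change was 0.92 (SE 0.087, 95% interval 0.75 to 1.10, adjusted p = 3.28e-10 by edgeR). Pcdh10, the delta-2 member that in mouse is needed for growth of striatal axons, had 319.9, 345 and 365 CPM in Q140 striata and 223, 247 and 275 CPM in wild-type striata, again with no overlap. Its log2 fold change was 0.45 (SE 0.0382, 95% interval 0.38 to 0.53, adjusted p = 4.39e-12). Pcdh20, Pcdh19 and Pcdh10 were the members whose groups did not overlap, 3 of 10, where 8.25% of all genes tested had groups that did not overlap.

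Among delta-1 members, Pcdh11x rose and Pcdh7 fell. Pcdh11x, X-linked like Pcdh19, had 34.8, 42.3 and 51.7 CPM (lowest, median and highest) in Q140 striata and 27.0, 31.0 and 42.7 CPM in wild-type striata. All 8 Q140 mice lay above the wild-type median, and 4 of them above the highest wild-type mouse, a female. The log2 fold change was 0.41 (SE 0.0874, adjusted p = 0.000405 by edgeR). Pcdh7, whose long form binds protein phosphatase-1, had 81.8, 87.0 and 95.8 CPM in Q140 striata and 84.8, 97.2 and 105 CPM in wild-type striata. All 8 Q140 mice lay below the wild-type median but the groups overlapped, and the log2 fold change was -0.14 (SE 0.0439, adjusted p = 0.014). With counts this made 5 of 10 members called, 4 higher and 1 lower, where 32.1% of 18270 genes were called, 16.9% higher and 15.2% lower. The median log2 fold change was 0.18 over the 10 members and 0.0018 over all genes tested.

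The remaining 5 members did not pass the test in Q140 striatum. Pcdh9 had 64.9, 72.9 and 77.5 CPM in Q140 mice and 50.2, 66.9 and 75.8 CPM in wild-type mice (log2 fold change 0.15, 95% interval 0.02 to 0.29, adjusted p = 0.069 by edgeR). Its 2 lowest wild-type values were 50.2 CPM in male 3 and 55.1 CPM in male 4. Without the 3 libraries that stood apart the adjusted p was 0.0379. Pcdh17 had 112, 136 and 155 CPM in Q140 mice and 78.1, 124 and 154 CPM in wild-type mice, with male 2 and male 3 lowest in wild type (log2 fold change 0.19, 95% interval -0.02 to 0.41, adjusted p = 0.173). Pcdh18 had a log2 fold change of 0.16 (95% interval -0.02 to 0.34), Pcdh8, known in rat as arcadlin and induced there by neuronal activity, 0.05 (-0.07 to 0.18), and Pcdh1 -0.02 (-0.09 to 0.05). Pcdh18 was the scarcest member, with 91 to 183 counts per striatal library.

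**Figure D2:**
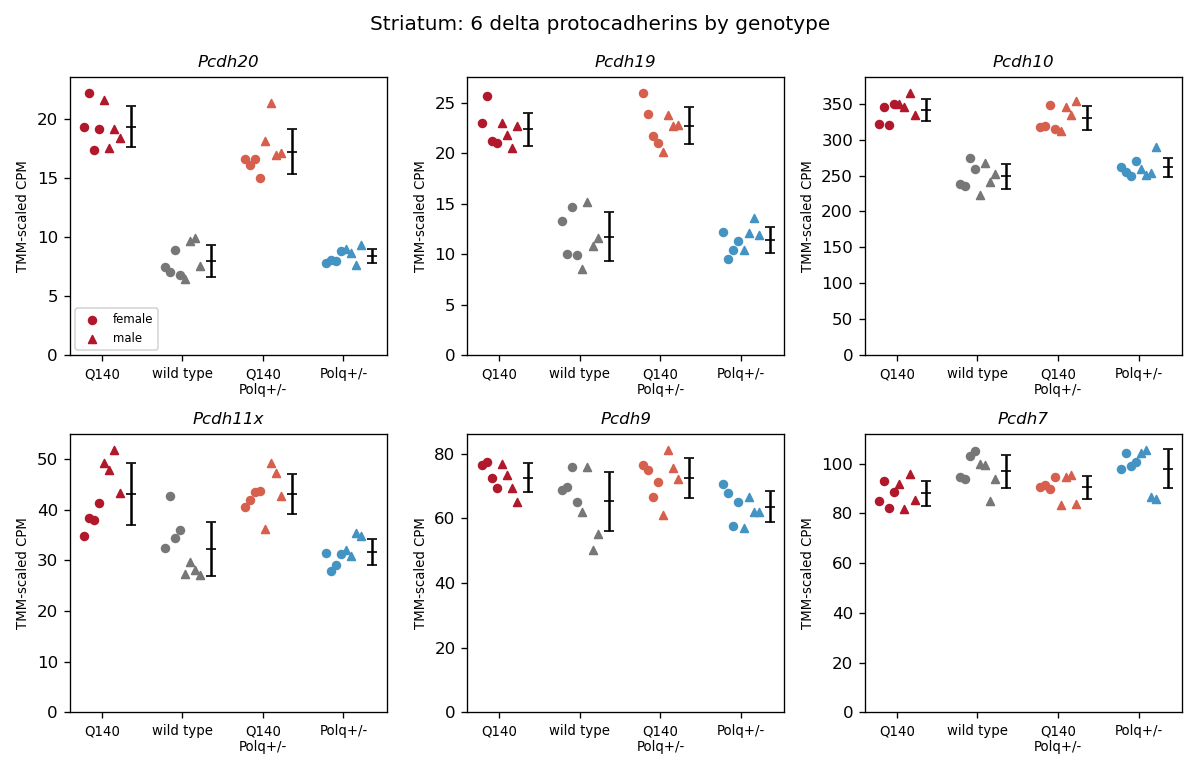
TMM-scaled CPM (vertical axes from 0) of 6 members in striatum by genotype, with circles for females, triangles for males and black bars for mean ± SD of 8 mice. For Pcdh20, Pcdh19 and Pcdh10 both groups with the knock-in lie wholly above the group without it, and for Pcdh7 they lie lower with overlap.

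The same comparison in mice labelled Polq+/- used separate animals. There Pcdh20 had 15.0, 16.8 and 21.3 CPM (lowest, median and highest) in Q140 Polq+/- striata and 7.64, 8.39 and 9.29 CPM in Polq+/- striata, a log2 fold change of 1.03 (SE 0.0734, adjusted p = 7.69e-14 by edgeR). Pcdh19 had 20.1, 22.7 and 26.0 CPM in Q140 Polq+/- striata and 9.55, 11.6 and 13.6 CPM in Polq+/- striata (0.99, SE 0.0871, adjusted p = 7.13e-11). Pcdh10 had 312, 326 and 354 CPM in Q140 Polq+/- striata and 249.7, 257 and 290.3 CPM in Polq+/- striata (0.34, SE 0.0381, adjusted p = 5.12e-09). Pcdh11x had 36.1, 43.1 and 49.2 CPM in Q140 Polq+/- striata and 27.9, 31.4 and 35.4 CPM in Polq+/- striata (0.45, SE 0.0872, adjusted p = 0.000158). None of these 4 members overlapped between the groups, where 11.5% of all genes did not overlap.

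Pcdh9 also rose in this background, with 61.1, 73.5 and 81.1 CPM in Q140 Polq+/- striata and 56.9, 63.5 and 70.7 CPM in Polq+/- striata (log2 fold change 0.19, SE 0.0649, adjusted p = 0.0254 by edgeR). Pcdh7 fell, with 83.5, 91.0 and 95.4 CPM in Q140 Polq+/- striata and 85.9, 99.7 and 105 CPM in Polq+/- striata (-0.12, SE 0.0438, adjusted p = 0.042). In all, 6 of 10 members were called, 5 higher and 1 lower, where 31.4% of all genes were called, 16.1% higher and 15.3% lower. Without the low-count filter Pcdh9 (adjusted p = 0.0505) and Pcdh7 (adjusted p = 0.0637) did not pass, which left 4 members called, all higher. Pcdh1 missed the threshold, at 179, 192 and 202 CPM in Q140 Polq+/- striata and 196, 203 and 216 CPM in Polq+/- striata (-0.09, adjusted p = 0.0562), and passed without wild-type male 3 in the fit (adjusted p = 0.0119). Pcdh8 had a log2 fold change of 0.12, Pcdh18 of 0.10 and Pcdh17 of 0.04, none of which passed. Without the 3 libraries that stood apart, 6 members were called in Q140 against wild type (5 higher, 1 lower) and 7 here (5 higher, 2 lower). The shares of all genes called without the filter or without these libraries are not reported here, so these counts have no background beside them. Several calls changed with the scaling. On deposited FPKM, which carries no TMM factor, 6 members were called in each comparison, 6 higher and 0 lower (limma, pseudocount 0.1). Of 18270 genes, 7166 were called on this scale for Q140 against wild type, 5355 higher and 1811 lower. For Q140 Polq+/- against Polq+/- 7289 were called, 5530 higher and 1759 lower. Pcdh7 passed in neither (adjusted p = 0.183 against wild type and 0.495 against Polq+/-), Pcdh9 passed in both, Pcdh17 passed against wild type (0.27, adjusted p = 0.031) and Pcdh8 against Polq+/- (0.18, adjusted p = 0.0325). With the plate column in the fit, Pcdh17 (adjusted p = 0.0362) and Pcdh8 (adjusted p = 0.0125) also passed there by edgeR, and Pcdh9 did not pass against Polq+/- (adjusted p = 0.0696). Plate column 1 held striatal wild-type libraries but none of Q140 mice, so genotype and plate column were partly tied. On deposited FPKM (limma, pseudocount 0.1) the split of all called genes moved to 74.7% higher for Q140 against wild type, against 52.7% higher with TMM.

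**Figure D3:**
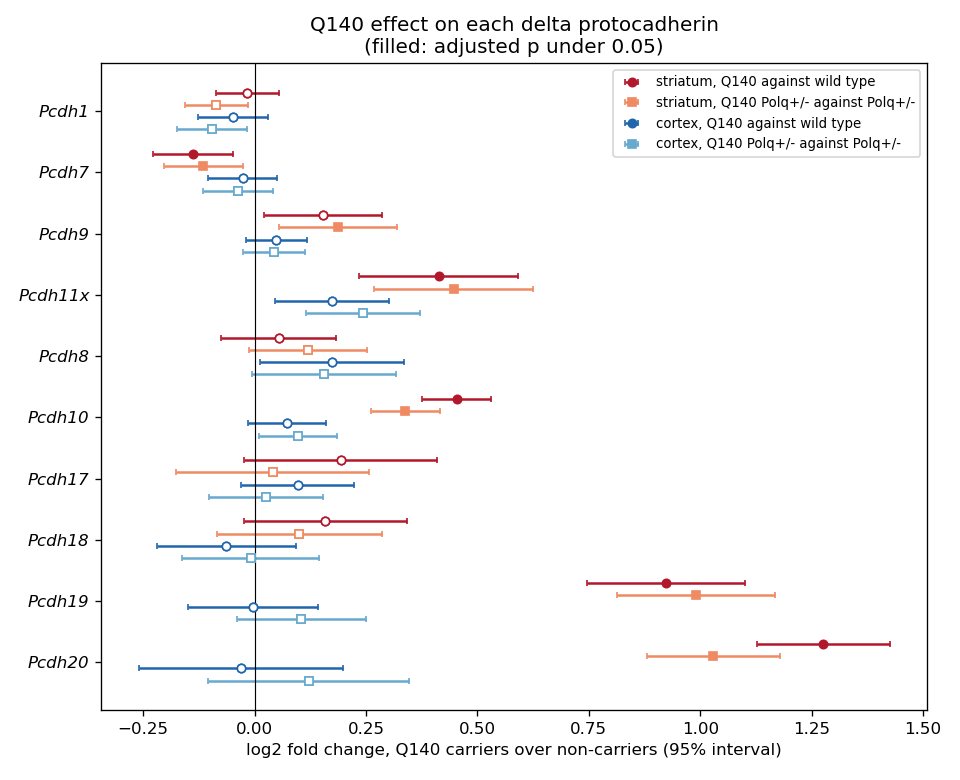
Log2 fold change (horizontal axis) with 95% interval of each member in 4 comparisons of mice with the Q140 knock-in over mice without it, filled where the adjusted p was under 0.05. The striatal values of Pcdh20 (1.28 and 1.03) and Pcdh19 (0.92 and 0.99) lie apart from all cortical values.

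Markers of striatal cells moved in the same comparisons, and their part in the results above was not tested. Markers counted here as fallen or risen are those called by edgeR at an adjusted p under 0.05. Over all genes tested in Q140 against wild type, 32.1% were called, 15.2% lower and 16.9% higher. In Q140 Polq+/- against Polq+/- 31.4% were called, 15.3% lower and 16.1% higher. The groups did not overlap for 8.25% and 11.5% of single genes in these comparisons, and no such share was computed for sums of markers. All 10 spiny neuron markers fell in Q140 striatum (median log2 fold change -0.66), and their summed level was 9868 to 11605 CPM in Q140 mice and 15618 to 19147 CPM in wild-type mice, without overlap. In mice labelled Polq+/- all 10 fell as well, with sums of 10372 to 11370 CPM in Q140 Polq+/- mice and 17035 to 18116 CPM in Polq+/- mice. All 6 endothelial and all 6 microglial markers fell in Q140 against wild type, with summed levels of 125 to 145 CPM and 208 to 225 CPM in Q140 mice, and of 150.5 to 167 CPM and 226 to 252 CPM in wild-type mice. In mice labelled Polq+/- 4 of 6 endothelial and 0 of 6 microglial markers were called lower, with median log2 fold changes of -0.14 and -0.09. In Q140 against wild type, of 5 indirect pathway markers 4 fell, and of 6 direct pathway markers 3 fell and 2 rose. In that comparison, of 6 oligodendrocyte markers 2 fell, of 6 astrocyte markers 0 passed, and of 8 interneuron markers 0 passed by edgeR. Of 6 mural cell markers 5 fell, with sums of 154 to 184 CPM in Q140 mice and 191 to 211 CPM in wild-type mice, without overlap. In mice labelled Polq+/- 2 of 6 mural and 2 of 6 astrocyte markers fell, and the astrocyte sums of 2972 to 3191 CPM in Q140 Polq+/- mice and 3269 to 3841 CPM in Polq+/- mice did not overlap. Cortical neuron markers, of which 6 of 8 passed the low-count filter, summed to 32.7 to 36.2 CPM in Q140 striata and 27.4 to 60.6 CPM in wild-type striata, with 2 of 6 called higher. Of 15 activity-regulated genes 9 fell and 0 rose, while Pcdh8 had a log2 fold change of 0.05.

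In cortex no member passed in either comparison by edgeR. For Q140 against wild type, 0 of 10 members were called, where 0.348% of 18116 genes were. At an unadjusted p under 0.05 were 2 of 10 members and 1770 of 18116 genes. DESeq2 and limma on FPKM called 0 members. For Q140 Polq+/- against Polq+/-, 0 were called, where 0.337% of all genes were. At an unadjusted p under 0.05 were 3 of 10 members and 1884 of 18116 genes. DESeq2 called 1 member and limma on FPKM 0. The member called by DESeq2 was Pcdh11x. Its cortical level was 15.0, 18.3 and 19.8 CPM (lowest, median and highest) in Q140 Polq+/- mice and 13.6, 14.9 and 17.2 CPM in Polq+/- mice, with all 8 Q140 Polq+/- mice above the Polq+/- median (log2 fold change 0.24, SE 0.063, adjusted p = 0.0753 by edgeR and 0.0235 by DESeq2). It was 15.5, 17.7 and 19.8 CPM in Q140 cortices and 12.9, 15.9 and 18.1 CPM in wild-type cortices (0.17, SE 0.063, adjusted p = 0.29 by edgeR).

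Cortical Pcdh20 had 20.2, 22.6 and 28.7 CPM in Q140 mice and 18.0, 25.3 and 29.0 CPM in wild-type mice (log2 fold change -0.03, 95% interval -0.26 to 0.20). Cortical Pcdh19 had 23.6, 27.1 and 29.9 CPM in Q140 mice and 23.1, 27.0 and 32.4 CPM in wild-type mice (0.00, 95% interval -0.15 to 0.14). Both intervals exclude the sizes seen in striatum. Cortical Pcdh10 had 189, 205 and 230.2 CPM in Q140 mice and 176, 196 and 214 CPM in wild-type mice (0.07, 95% interval -0.01 to 0.16). Pcdh8, at 30.0, 31.8 and 38.7 CPM in Q140 cortices and 26.4, 28.7 and 34.0 CPM in wild-type cortices (0.17, SE 0.0793, adjusted p = 0.46 by edgeR), was the other member under an unadjusted p of 0.05.

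**Figure D4:**
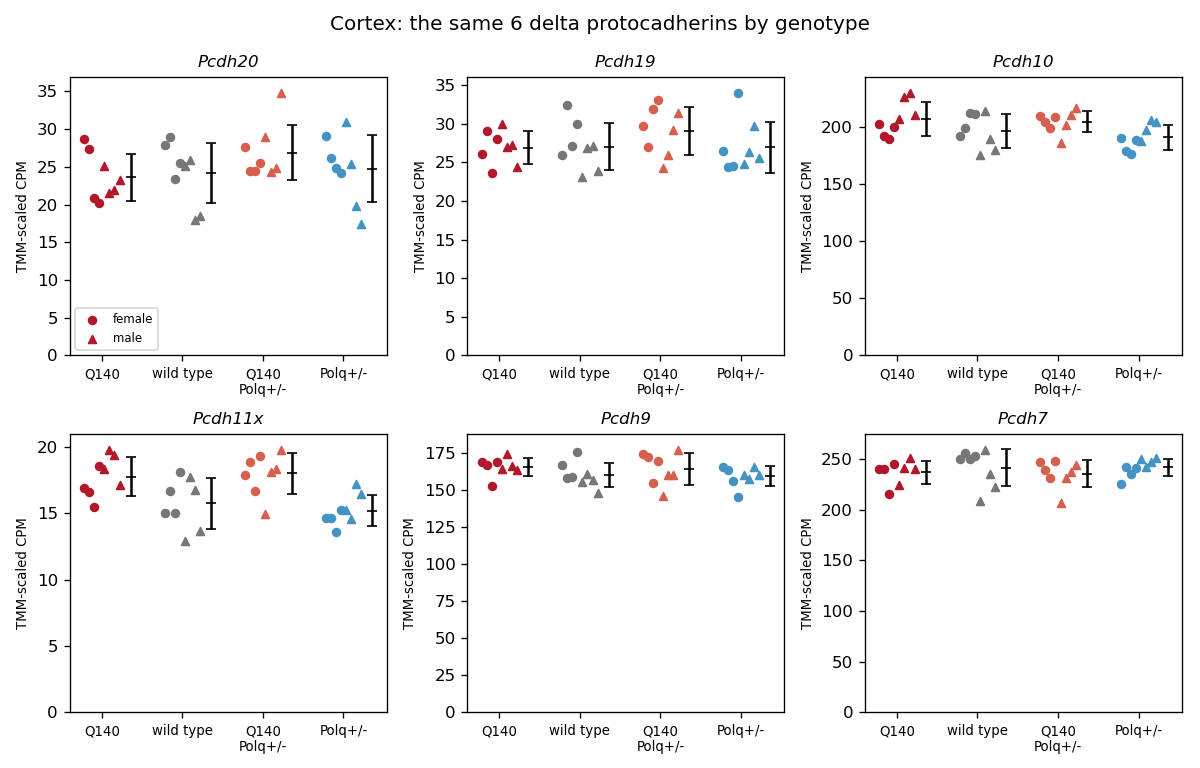
TMM-scaled CPM (vertical axes from 0) of the same 6 members in cortex by genotype, with circles for females, triangles for males and black bars for mean ± SD of 8 mice. In each panel the group with the knock-in overlaps the group without it (over all genes, 0.121% in Q140 mice and 0.127% in Q140 Polq+/- mice did not overlap), and Pcdh11x shows the widest shift.

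The difference between tissues was tested directly, as the Q140 effect in striatum minus that in cortex, averaged over both Polq backgrounds, with the mouse as a block. It passed for 6 of 10 members, 5 higher and 1 lower, where 32.1% of 19091 genes passed, 15.7% higher and 16.3% lower. The difference in log2 fold change was 1.10 for Pcdh20 (SE 0.0992, adjusted p = 2.19e-10 by edgeR), 0.91 for Pcdh19 (SE 0.074, adjusted p = 1.00e-11), 0.30 for Pcdh10 (SE 0.0272, adjusted p = 3.95e-12) and 0.22 for Pcdh11x (SE 0.0471, adjusted p = 0.000284). It was 0.12 for Pcdh9 (adjusted p = 0.0391) and -0.10 for Pcdh7 (adjusted p = 0.034), and neither passed without the mouse block or without the low-count filter. Without the 3 mice whose striatal libraries stood apart, Pcdh9 had an adjusted p of 0.0506. For Pcdh8 it was -0.08 and for Pcdh17 0.05, with adjusted p of 0.314 and 0.70.

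Lower Polq dosage was examined in both Htt backgrounds. For Polq+/- against wild type, 0 of 10 members were called in striatum by edgeR (0.0493% of all genes were) and 0 in cortex (0.0442%). At an unadjusted p under 0.05 were 1 striatal and 0 cortical members, beside 924 of 18270 and 841 of 18116 genes. For Q140 Polq+/- against Q140, 0 were called in striatum (0.0547% of all genes) and 0 in cortex (0.0552%). At an unadjusted p under 0.05 were 2 striatal members and 1 cortical member, beside 611 of 18270 and 1136 of 18116 genes. DESeq2 and limma on FPKM also called 0 in each, and so did edgeR without the 4 mice of very low Polq. Pcdh8 had the smallest striatal p in both comparisons. It was 7.72, 8.21 and 9.18 CPM (lowest, median and highest) in Polq+/- mice and 8.22, 9.69 and 11.4 CPM in wild-type mice, and 8.22, 8.76 and 10.2 CPM in Q140 Polq+/- mice and 8.51, 10.3 and 11.7 CPM in Q140 mice. All 8 mice of each Polq+/- group lay below the median of the group it was set against. The log2 fold changes were -0.26 (SE 0.0644) and -0.20 (SE 0.0642), with adjusted p of 0.261 and 1 by edgeR. In cortex the values of Pcdh8 did not move this way: its mean was 29.8 CPM in Polq+/- mice and 29.3 CPM in wild-type mice, and 33.2 CPM in Q140 Polq+/- mice and 33.0 CPM in Q140 mice.

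The interaction asks whether the Q140 effect differed between the Polq backgrounds. No member passed in striatum or cortex by edgeR, where 0 genes passed in either tissue, and DESeq2 and limma on FPKM called 0 members. In cortex 0 members and 863 of 18116 genes had an unadjusted p under 0.05. In striatum 893 of 18270 genes had one, among them 2 members. These 2 were Pcdh20 (-0.25, 95% interval -0.46 to -0.04, adjusted p = 0.996) and Pcdh10 (-0.12, 95% interval -0.22 to -0.01, adjusted p = 0.996), whose rise was smaller in the mice labelled Polq+/- by those amounts, short of the threshold. For Pcdh19 the interaction was 0.07 (95% interval -0.18 to 0.32).

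Sex was compared because Pcdh11x and Pcdh19 are X-linked. For females against males, 0 of 10 members were called in striatum by edgeR (0.367% of all genes were) and 0 in cortex (1.15%), and 0 by DESeq2 in both. At an unadjusted p under 0.05 were 0 striatal members and 1 cortical member, beside 1621 of 18270 and 2354 of 18116 genes. The log2 fold change of female over male was -0.04 for Pcdh11x (95% interval -0.17 to 0.08) and 0.01 for Pcdh19 (-0.12 to 0.13) in striatum. The Q140 effect itself, female minus male, differed for 0 members by edgeR, and for 0 genes in all. In striatum 2 members were at an unadjusted p under 0.05, beside 881 of 18270 genes. Striatal Pcdh11x had the smaller p. In females it had 34.8, 40.9 and 43.7 CPM (lowest, median and highest) in mice with the Q140 knock-in and 27.9, 31.9 and 42.7 CPM in mice without it. In males it had 36.1, 47.4 and 51.7 CPM with the knock-in and 27.0, 30.3 and 35.4 CPM without it. These values are of 8 against 8 mice of each sex. The difference of the effects was -0.30 (SE 0.0785, adjusted p = 0.967 by edgeR). Pcdh8 had a difference of 0.23 (SE 0.0862, adjusted p = 0.967 by edgeR).

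Known partners and relatives of the delta protocadherins were counted from lists chosen with earlier results of these data known. Of the 9 genes of the WAVE complex, which Pcdh10, Pcdh17 and Pcdh19 are reported to recruit, 7 were called in Q140 against wild-type striatum, 2 higher and 5 lower (median log2 fold change -0.16). The 4 with the smallest p were Abi1 (-0.29, adjusted p = 1.40e-11 by edgeR), Nckap1 (-0.28, adjusted p = 2.52e-10), Brk1 (-0.27, adjusted p = 2.62e-08) and Cyfip2 (-0.30, adjusted p = 2.13e-06), all subunits of the complex. In Q140 Polq+/- against Polq+/- striatum, 6 of 9 were called, 1 higher and 5 lower. Over all genes tested, 32.1% were called in Q140 against wild type (median 0.0018) and 31.4% in Q140 Polq+/- against Polq+/- (median 0.0051). Of other reported partners in Q140 against wild type, the protein phosphatase-1 subunits Ppp1ca (-0.47, adjusted p = 2.95e-13 by edgeR) and Ppp1cb (-0.22, adjusted p = 1.06e-08), which bind delta-1 members, and Set (-0.09, adjusted p = 0.0297), an inhibitor of protein phosphatase-2A, fell, and Cdh2, N-cadherin, rose (0.09, adjusted p = 0.036). Ppp1cc (-0.12), Mapk14 (-0.01) and Taok2 (0.02) did not pass.

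In Q140 against wild-type striatum, where 32.1% of all genes tested were called, relatives were counted as well. Of the 14 classical cadherins tested (median log2 fold change -0.06), 7 were called, 5 higher and 2 lower. Cdh18 (0.81, adjusted p = 2.79e-11 by edgeR) and Cdh10 (0.32, adjusted p = 4.96e-08) rose, and Cdh4, the retinal cadherin (-0.78, adjusted p = 2.88e-06), and Cdh9 (-0.48, adjusted p = 1.15e-05) fell. Of 10 Fat, Dachsous, Celsr and related cadherins tested (median 0.07), 2 were called, both higher: Fat1, a very large atypical cadherin (0.78, adjusted p = 3.00e-10), and Dchs2 (0.34, adjusted p = 0.00572). Of the 7 catenins, which tie classical cadherins to actin (median -0.01), 4 were called. Ctnnb1 rose (0.10, adjusted p = 0.00168), and Ctnna1 (-0.26, adjusted p = 4.86e-08), Ctnnd2 (-0.19, adjusted p = 7.19e-07) and Jup (-0.16, adjusted p = 0.00213) fell. In Q140 Polq+/- against Polq+/- striatum, where 31.4% of all genes were called, 6 of 14 classical cadherins were, 3 higher and 3 lower (median 0.01). There 1 of 10 Fat, Dachsous, Celsr and related cadherins was called higher. Of the 7 catenins 4 were called, 1 higher and 3 lower. In cortex 0 genes of these 5 lists were called in either comparison of mice with and without the knock-in by edgeR.

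The members did not move as a block from mouse to mouse. After genotype and sex means were removed, the 45 pairs of members correlated over 32 striatal libraries at a median r of 0.08, from -0.69 to 0.63, with 28 pairs above 0. Libraries share depth and dissection, so these values are descriptions. The lowest was between Pcdh17 and Pcdh20 (r = -0.69 in striatum, -0.64 without the 3 libraries that stood apart, -0.51 over 32 cortical libraries). The highest was between Pcdh8 and Pcdh19 (0.63, 0.58 without those 3, 0.51 in cortex). In cortex the range was -0.76 (Pcdh1 and Pcdh20) to 0.82 (Pcdh10 and Pcdh11x), with Pcdh7 close to Pcdh11x (0.81) and to Pcdh10 (0.80). Striatal and cortical deviations of the same mouse correlated most for Pcdh11x (r = 0.62 over 32 mice) and Pcdh10 (0.56), and hardly for Pcdh20 (-0.04) and Pcdh17 (0.07).

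**Figure D5:**
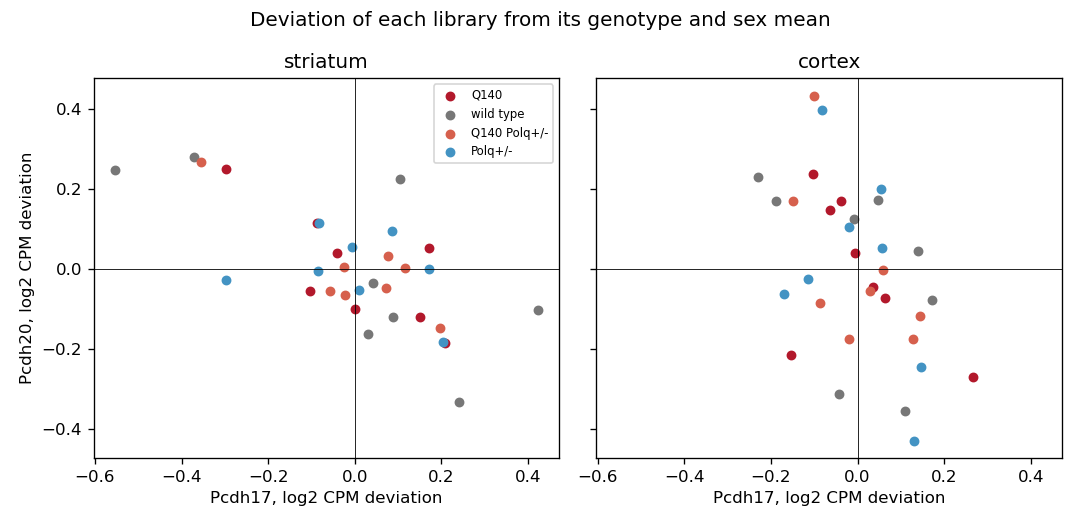
Deviation of each library from the mean of its genotype and sex (log2 CPM), Pcdh17 on the horizontal and Pcdh20 on the vertical axis, in striatum (left) and cortex (right), with 32 libraries in each panel. Libraries high in Pcdh20 tend to be low in Pcdh17 (r = -0.69 in striatum, -0.51 in cortex).

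For each member, the non-members with the most similar striatal deviations were found among 13649 genes, over the same 32 libraries. Pcdh20 was most like Gna12 (r = 0.79), Ermn (0.77) and Evi2a (0.77), of which Ermn is known from myelinating oligodendrocytes. The summed oligodendrocyte markers were 5307 to 6543 CPM in Q140 striata and 5585 to 7430 CPM in wild-type striata, and their part in the level of Pcdh20 was not tested. In cortex r with Pcdh20 was -0.46 for Gna12, -0.41 for Ermn and 0.09 for Evi2a. Pcdh17 was most like Fam102b (0.86, and 0.13 in cortex), Pcdh1 like Ago2 (0.94, and 0.83 in cortex), and Pcdh11x like Gucy1a3 (0.83, and -0.01 in cortex), Slc6a15 (0.82, and 0.35 in cortex) and its relative Cdh13 (0.79, and 0.69 in cortex). Pcdh19 was most like Ccdc93 (0.77, and 0.14 in cortex), Pcdh8 like Rif1 (0.72, and 0.36), Pcdh10 like Syt10 (0.68, and 0.53), Pcdh7 like Acot11 (0.66, and -0.44) and Pcdh18 like Eif3s6-ps2 (0.65, and -0.07).

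The 4 members on chromosome 14 were set beside their neighbours. Between the outer ends of Pcdh8 and Pcdh9 (chr14:79766775-93890679), 8 genes were tested in striatum. For Q140 against wild type 3 of them were called, all higher: Pcdh20, Tdrd3 and Gm10110, where 32.1% of all genes tested were called. For Q140 Polq+/- against Polq+/- the 3 were Pcdh20, Pcdh9 and Tdrd3, where 31.4% of all genes were called. These counts are close to those shares. Pcdh17 and Pcdh8, the other members in this stretch, passed in neither.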

How the data were processed

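RNA was extracted with a Qiagen RNeasy kit and libraries were made with the TruSeq stranded protocol, per the labels' protocols. STAR 2.7.5c, SAMtools 1.10 and HTSeq 0.12.3 and the build GRCm38 (mm10) are named in the submitters' processing notes. The authors deposited raw counts per gene and FPKM for each library. In the deposited table, FPKM were those counts divided by gene length and by the library total. The tables had 0 columns of other samples.

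The counts were fitted in R 4.3.3 by edgeR 4.0.16 (TMM, the default low-count filter by genotype, robust quasi-likelihood fit, sex as a covariate), with all 32 libraries of a tissue in 1 fit, and all 64 with the mouse as a block for tissue differences. Benjamini-Hochberg adjustment ran over all genes tested, and an adjusted p under 0.05 was called. The interaction subtracts the Q140 effect of mice with both Polq copies from that of mice labelled Polq+/-. The fit was tested on simulated data. Both tissues of a mouse carry the same mouse name in the labels. Alternatives were DESeq2 1.42.0, its size factors in edgeR, limma 3.58.1 on log2(FPKM + 0.1) or log2(FPKM + 1), no filter, a replicate block, the plate column and libraries left out. Intervals are for a log2 fold change between groups, or for a difference between such changes, and are not ranges of single mice. Their width rests on the variation between mice, with 8 mice per group.

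The members, gene lists and tests were chosen with earlier results of these data known. The genes named were all 10 members, Polq and Htt, up to 4 genes of each list with the smallest p in Q140 against wild-type striatum (of the other partners all but Taf1, left out because the reported partner of that name is Set), and for each member the 3 genes with the highest correlation of deviations among those with a mean striatal FPKM of at least 1 (of some members fewer or none are reported here). Drd1, Slc17a7, Tdrd3, Gm10110 and 4932441J04Rik were named beside results. RefSeq promoter windows matched 8 of 10 members.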

Additional observations from a re-analysis of the deposited data

Results flagged for a closer look

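The difference between the tissues in the Q140 effect, striatum minus cortex on the log2 scale, passed the test for 6 members: 1.10 for Pcdh20, 0.91 for Pcdh19, 0.30 for Pcdh10, 0.22 for Pcdh11x, 0.12 for Pcdh9 and -0.10 for Pcdh7, where 32.1% of all genes passed. Pcdh9 and Pcdh7 did not pass without the mouse block (adjusted p = 0.0938 and 0.0617 by edgeR) or without the low-count filter (adjusted p = 0.0812 and 0.0708).

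Single libraries lay far from the others of their group in 2 of 80 groups of member, tissue and genotype, where chance alone sets apart about 1 in 20 groups, or 4. In Q140 Polq+/- cortex, male 1 had 206 CPM of Pcdh7 and the other 7 mice 231 to 248 CPM. In the same group, male 4 had 34.8 CPM of Pcdh20 and the other 7 mice 24.3 to 29.0 CPM.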

How the results depend on the processing

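Of 1200 values of single members under the alternatives, 1171 kept their side of the threshold, 13 lost and 16 gained a call. Of the 1171, 39 were uncalled in both settings and changed sign, and 0 called values changed sign. The calls of Pcdh20, Pcdh19, Pcdh10 and Pcdh11x in striatum held under all 10 alternatives in both Q140 comparisons (log2 fold changes of 0.75 to 1.38, 0.60 to 1.08, 0.32 to 0.51 and 0.35 to 0.50). The number of members called lay between 5 and 6 for Q140 against wild type in striatum, between 4 and 7 for Q140 Polq+/- against Polq+/-, and between 4 and 6 for the difference between tissues. The 2 counts that moved by over 1.5 times were in cortex, Q140 Polq+/- against Polq+/-, where DESeq2 called 1 member in place of 0, and the replicate block also called 1, Pcdh11x in both (adjusted p = 0.0235 and 0.0321). Same-numbered mice did not pair between genotypes (correlations of deviations -0.27 to 0.26), so the replicate block, which called 6 members in both striatal Q140 comparisons, rests on a number alone. Without the mouse block, pairing the tissues, 4 members differed between tissues, and without the low-count filter also 4. Of the alternatives, the number of all genes called is given above only for FPKM in the striatal Q140 comparisons. Other changes of call concerned Pcdh1, Pcdh7, Pcdh8, Pcdh9 and Pcdh17, and the cause was not tested. DESeq2 and limma were not run for the sex difference in the Q140 effect, nor was leaving out each of 8 mice in turn. Pcdh18, with 91 counts in its lowest striatal library, is the member for which depth limits precision most.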
